A study of Mus musculus with 29 samples.

Results

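Genes of cholesterol and fatty acid synthesis, 34 in all, were followed across 29 arrays, with 20 in the sterol arm and 14 in the fatty acid arm. They were the genes of a given list of 35 names, in which Sc4mol and Msmo1 are names of a single gene, and each was read from its brightest probe set on average. All 34 passed the filter on low signals, among 14606 genes tested. The samples were 6 TI-KM recurrences, 14 TI-KM primary tumours, 8 TI-K primary tumours and 1 normal lung, all mouse lung tissue of mixed 129/Bl6 background with 1 array each. TI-KM mice carried CCSP-rtTA, TRE-KrasV12 and TRE-Mad2, TI-K mice carried CCSP-rtTA and TRE-KrasV12, and the normal lung came from a mouse with CCSP-rtTA only, a transgene that all groups shared. The CCSP promoter is active in airway epithelium, where it makes the transactivator rtTA, and TRE transgenes respond to rtTA when doxycycline is given. The series title concerns relapse after the oncogene is withdrawn, and the recurrences are tumours of TI-KM mice. Ages were not given in the labels used here. TI-KM primaries 1 and 2 share the title number 76, and whether they came from 1 animal is not stated.

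Cells make cholesterol from acetyl-CoA through the mevalonate pathway, whose products are joined to squalene, closed into lanosterol and trimmed to cholesterol. Fatty acids are built from the same acetyl-CoA by carboxylation and repeated condensation, then lengthened by elongases and given double bonds by desaturases. SREBP transcription factors, held in the endoplasmic reticulum by Insig proteins when sterol is plentiful, switch on most genes of both arms. In the lung, alveolar type II cells use fatty acid synthesis for surfactant phospholipid, and adipose tissue runs the fatty acid arm for storage.

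The 1 normal lung array carried strong adipocyte signals, given here before any comparison with it. Ucp1, the uncoupling protein of brown fat, had a signal of 1.51 to 42.9 across the 28 tumours, against 27199.8 in normal lung. Adipoq, a hormone of fat cells, was at 3.35 to 61.4 in tumours and at 16731.5 in normal lung. Cidea, a lipid droplet protein, was at 2.06 to 265 in tumours and at 17182.3 in normal lung. Summed over all 11 adipocyte markers on the array, the signal was 23614.5 to 41259.8 in TI-K primaries, 11950.4 to 38729.5 in TI-KM primaries and 16272.2 to 29947.1 in recurrences, against 145048 in normal lung. Retn, another of these markers, was at 5.44 to 323 (median 50.9) in tumours and at 37.2 in normal lung. Cd36 overlapped, at 3184.27 to 16340.9 in tumours and 15815.6 in normal lung, and every other marker lay above all tumours. Ucp1 and Adipoq failed the filter on low signals and were not tested. Of 6 adipocyte markers tested, limma called 3 lower in each tumour group at an adjusted p below 0.05. The part of the adipocyte signals in the differences below was not tested. Alveolar type II markers ran the other way, with a summed signal of 141904 to 205858 in TI-K primaries, 118425 to 184022 in TI-KM primaries and 95951.8 to 170185 in recurrences, against 59862.5 in normal lung; of these 9 markers 8 rose in each of the 3 tumour groups. The exception was Sftpc, the surfactant protein that defines these cells, at 10459.9 to 31058.2 (median 16570.2) in tumours and at 28262.3 in normal lung, with log2 differences of -0.98 in recurrences, -0.75 in TI-KM primaries and -0.51 in TI-K primaries that did not pass (limma adjusted p = 0.065, 0.145 and 0.379). In bulk RNA, fewer cells of a type and less RNA per cell cannot be told apart.

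Sets of tumour arrays, 3 in all and not named in the labels, cut across the groups. High-18S tumour arrays, 10 in all, had an 18S ribosomal control signal above 12000 (12664.8 to 24001.1), namely TI-KM primaries 1 to 6 and recurrences 1 to 4. The TI-K primaries 1 to 5 had title numbers above 6000. The remaining 13 arrays (8 TI-KM primaries, 3 TI-K primaries, 2 recurrences) had an 18S signal of 5938.51 to 10856.9. The normal lung array, which was put in no set, had an 18S signal of 12569.3 and so lay on the high-18S side. All 8 TI-K primaries, at 7615.65 to 9638.59, lay on the other side. In their comparison with normal lung, side of the threshold and tumour thus cannot be told apart. RNA integrity, read as the log2 3'/5' signal ratio of control transcripts, was 1.32 ± 0.45 in recurrences (SD, n = 6), 2.16 ± 0.67 in TI-KM primaries (SD, n = 14), 2.16 ± 0.41 in TI-K primaries (SD, n = 8) and 2.59 in normal lung.

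Against the normal lung array, 5 or 6 of the 14 fatty acid genes and 3 or 4 of the 20 sterol genes were called in each tumour group. Acaca, Acacb, Elovl6, Hmgcs1, Insig1 and Nsdhl fell and Elovl1 rose in all 3 groups. Fdft1 and Acss2 passed in both TI-KM groups, and Acly in TI-K primaries and recurrences, all 3 of them lower. Whether they passed in the other group depended on which arrays entered the fit and, for Acly, also on the probe set. With limma across all genes and a Benjamini-Hochberg adjusted p below 0.05, 1 fatty acid gene rose and 4 fell in TI-K primaries, against 13.5% of all genes called in either direction (6.74% higher, 6.79% lower). In TI-KM primaries 1 rose and 4 fell, against 14.9% of all genes (7.75% higher, 7.15% lower). In recurrences 1 rose and 5 fell, against 12.5% of all genes (6.46% higher, 6.09% lower). In the sterol arm no gene rose, and 3 of 20 fell in TI-K primaries, 4 in TI-KM primaries and 4 in recurrences. The median difference of the fatty acid arm was -0.65 in TI-K primaries, -0.81 in TI-KM primaries and -1.05 in recurrences on the log2(signal + 20) scale, and that of the sterol arm was -0.46 in TI-K primaries, -0.41 in TI-KM primaries and -0.36 in recurrences. Over all genes the median was 6.38e-05 in TI-K primaries, 0.096 in TI-KM primaries and 0.14 in recurrences. These 3 comparisons share the 1 normal lung array, and their p-values borrow its spread from the tumour groups. For 13 members every one of the 28 tumours lay below normal lung and for Elovl1 every tumour lay above it, while 12.4% of all genes had every tumour below and 12.6% every tumour above. With arrays scaled to a common median the calls of Hmgcs1, Nsdhl, Fdft1, Acss2 and Acly were lost, as was that of Elovl1 in recurrences. Within the remaining arrays 14 members were called in TI-K primaries, 14 in TI-KM primaries and 10 in recurrences, against 23.8%, 26.3% and 20.1% of all genes; the normal array lies on the other side of the 18S threshold from these tumours, so that set and tumour cannot be told apart there. Within the high-18S arrays, on the same side as the normal array, 9 members were called in recurrences and 8 in TI-KM primaries, against 11.8% and 15.1% of all genes, with Elovl1 no longer called in recurrences (limma adjusted p = 0.0549) and Hmgcs1 and Fdft1 no longer called in TI-KM primaries (limma adjusted p = 0.108 and 0.0684). In a fit of recurrences and normal lung alone the calls of Acaca, Acly, Acss2, Elovl1, Fdft1, Hmgcs1 and Nsdhl were lost. The brightest probe set did not always speak for its gene, for of 22 members with several measured probe sets 19 had 1 or more that differed from it by over 1.5-fold against normal lung.

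**Figure D1:**
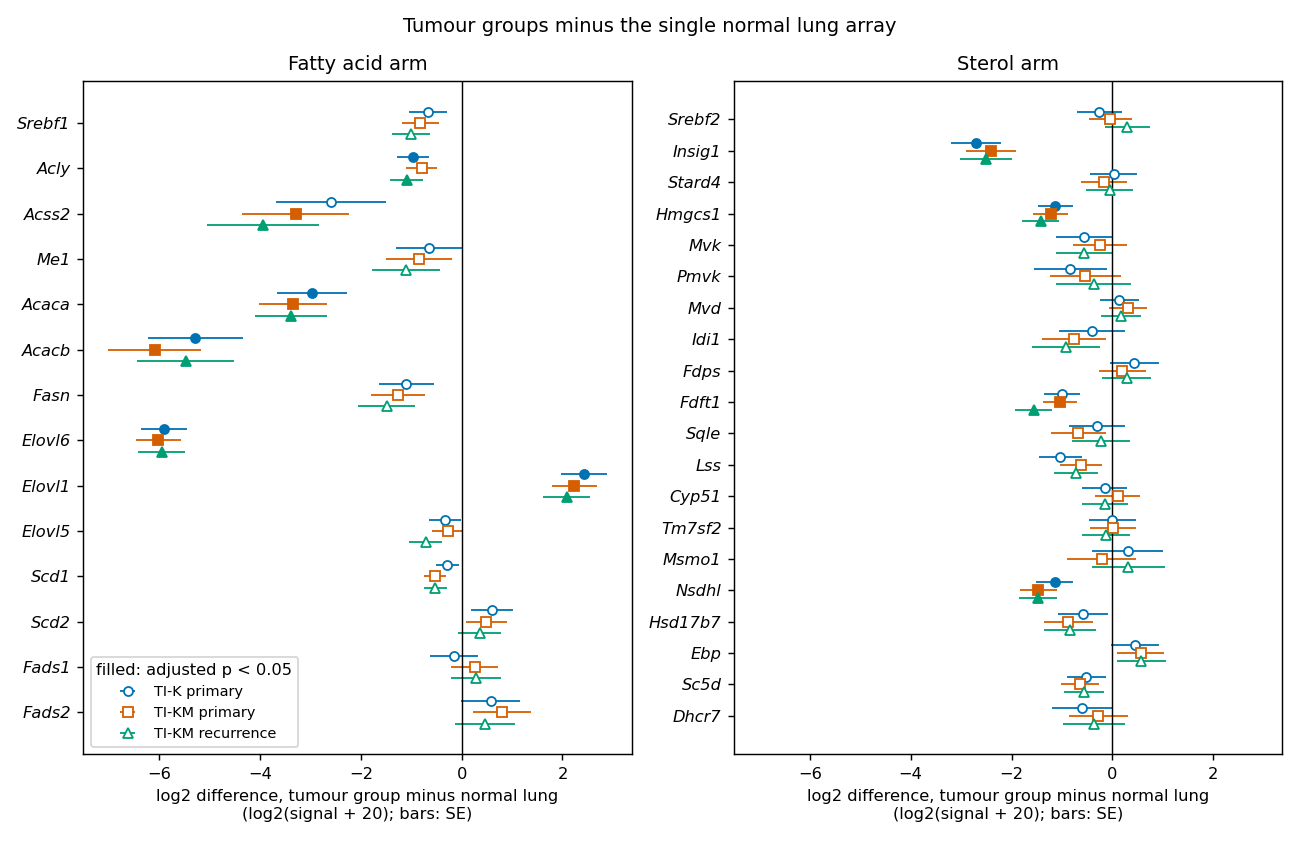
Difference of each tumour group from the normal lung array on the log2(signal + 20) scale, with bars of 1 standard error, for the 14 fatty acid genes and the 20 sterol genes; filled points have a limma adjusted p below 0.05. Elovl6 and Acacb lie farthest to the left, at -5.91 and -5.28 in TI-K primaries, and Elovl1 alone is called to the right, at 2.42.

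Promoters of 4 members are shown, those of Hmgcs1 and Insig1 as sterol genes that fell in all 3 tumour groups, and those of Elovl6 and Elovl1 as elongases that moved in opposite directions. The sequences are from RefSeq (GRCm38.p6), from 250 bases before to 50 bases after the gene's start, all on the plus strand. They lie at chr13:119690101-119690400 (Hmgcs1), chr5:28071162-28071461 (Insig1), chr3:129532136-129532435 (Elovl6) and chr4:118427843-118428142 (Elovl1). Capitals mark CCAAT or its reverse complement ATTGG, the box bound by NF-Y, and TCACNCCAC on either strand, a core of the sterol regulatory element to which SREBP binds.
Hmgcs1: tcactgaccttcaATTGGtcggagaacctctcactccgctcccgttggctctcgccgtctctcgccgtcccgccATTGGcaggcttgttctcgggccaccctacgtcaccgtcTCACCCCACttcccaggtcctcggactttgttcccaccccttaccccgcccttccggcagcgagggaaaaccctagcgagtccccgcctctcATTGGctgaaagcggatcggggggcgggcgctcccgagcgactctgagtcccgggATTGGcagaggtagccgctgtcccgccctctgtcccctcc
Insig1: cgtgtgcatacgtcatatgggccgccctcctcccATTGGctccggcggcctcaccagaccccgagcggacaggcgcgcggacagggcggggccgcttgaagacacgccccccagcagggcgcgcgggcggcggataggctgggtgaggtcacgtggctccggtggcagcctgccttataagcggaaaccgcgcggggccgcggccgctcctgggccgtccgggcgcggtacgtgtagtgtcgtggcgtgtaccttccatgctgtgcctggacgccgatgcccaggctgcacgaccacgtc
Elovl6: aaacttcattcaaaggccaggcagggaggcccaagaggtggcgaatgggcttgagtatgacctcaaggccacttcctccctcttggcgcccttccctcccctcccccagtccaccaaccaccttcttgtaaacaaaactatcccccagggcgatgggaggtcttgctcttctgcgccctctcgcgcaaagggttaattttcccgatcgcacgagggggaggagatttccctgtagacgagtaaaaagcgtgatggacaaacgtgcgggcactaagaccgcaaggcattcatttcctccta
Elovl1: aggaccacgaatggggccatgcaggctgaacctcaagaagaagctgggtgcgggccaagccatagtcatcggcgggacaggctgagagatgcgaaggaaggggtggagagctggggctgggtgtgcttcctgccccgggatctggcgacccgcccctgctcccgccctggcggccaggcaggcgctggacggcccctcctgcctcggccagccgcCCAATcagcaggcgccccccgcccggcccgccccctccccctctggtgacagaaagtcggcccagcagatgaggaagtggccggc
Hmgcs1 held 4 CCAAT boxes and 1 sterol element core, Insig1 and Elovl1 held 1 CCAAT box each, and Elovl6 held none of these letters. Promoters were matched for 27 of the 34 members. CCAAT was found in 16 of 16 sterol members and 8 of 11 fatty acid members, against 41.1% of 27025 genes and 41.9% of the tested genes with a promoter. The core TCACNCCAC was found in 1 of the 27, Hmgcs1, against 1.44% of all genes. GGGCGG, the box bound by Sp-family factors, was found in 15 of 16 sterol and 6 of 11 fatty acid members, against 38.2% of all genes and 63.5% of those tested; it is not marked above, and its letters can share the end of ATTGG. A match is a description of these letters in this window.

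The fatty acid arm begins with the supply of acetyl-CoA. Acss2, which makes acetyl-CoA from acetate, had signals of 204 to 3764 (median 723) in recurrences, 254 to 3747 (median 2101) in TI-KM primaries and 1745 to 3057 (median 2431) in TI-K primaries, against 14214 in normal lung. Every tumour was below normal lung, and within both TI-KM groups the arrays spread more than 10-fold. Acss2 fell 15.4-fold in recurrences (log2 -3.94 ± 1.11 SE, limma adjusted p = 0.0165) and 9.78-fold in TI-KM primaries (log2 -3.29 ± 1.06, limma adjusted p = 0.0338). In TI-K primaries its log2 difference of -2.59 ± 1.09 did not pass (limma adjusted p = 0.118), but with TI-K primaries and normal lung alone it did (limma adjusted p = 9.03e-05), as it did within the remaining arrays (-2.65, limma adjusted p = 8.66e-05). The 3'/5' ratio, lowest in recurrences, as a covariate reduced their difference to -3.18 and ended the call (limma adjusted p = 0.0817). The next brightest probe set of Acss2 gave -3.26 in recurrences, -3.22 in TI-KM primaries and -2.27 in TI-K primaries. Acly, which cleaves citrate to acetyl-CoA, was at 7179.9 to 16189 (median 12406) in recurrences, 11264 to 18944 (median 14427) in TI-KM primaries and 9688 to 19031 (median 12559) in TI-K primaries, against 24880.2 in normal lung. It fell in recurrences (log2 -1.09 ± 0.33, limma adjusted p = 0.0245) and in TI-K primaries (-0.96 ± 0.32, limma adjusted p = 0.0423). The difference in TI-KM primaries, -0.79 ± 0.31, did not pass with all arrays in the fit. It passed without recurrence 1 (limma adjusted p = 0.0487), with the 2 groups alone (0.0393) or within the remaining arrays (0.00701). With the next brightest probe set of Acly in the fit, TI-KM primaries also passed (-2.21, limma adjusted p = 6.73e-05). With the 3'/5' ratio as a covariate the call in recurrences was lost (-0.67, limma adjusted p = 0.149). The next brightest probe set of Acly gave -1.92 in recurrences, -2.21 in TI-KM primaries and -2.16 in TI-K primaries. Without TI-K primary 2, 3, 4 or 5 the TI-K call of Acly was lost, with an adjusted p of 0.0558, 0.0582, 0.0571 and 0.0586. Me1, the malic enzyme that supplies NADPH, ran 1065 to 7779 (median 4768) in recurrences, 2174 to 8432 (median 5019) in TI-KM primaries and 2901 to 8039 (median 5443) in TI-K primaries, against 8459 in normal lung. All tumours lay below the normal array, yet no log2 difference of Me1 (-0.64 to -1.10) passed.

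Acetyl-CoA carboxylase makes malonyl-CoA, the donor for fatty acid synthase. Acaca, its cytosolic form, had signals of 399 to 2311 (median 1495) in recurrences, 356 to 2136 (median 1427) in TI-KM primaries and 925 to 2199.8 (median 1754) in TI-K primaries, against 12835 in normal lung. The highest tumour remained far below the normal array, and Acaca fell 10.4-fold in recurrences, 10.2-fold in TI-KM primaries and 7.80-fold in TI-K primaries (limma adjusted p = 0.00138, 7.65e-04 and 0.00348). A dimmer probe set of Acaca gave smaller log2 differences, -0.82 in recurrences, -1.04 in TI-KM primaries and -1.51 in TI-K primaries. Acacb, the mitochondrial form that restrains fatty acid oxidation, was at 13.7 to 287 (median 92.4) in recurrences, 11.2 to 157 (median 57.3) in TI-KM primaries and 9.74 to 192 (median 111) in TI-K primaries, against 4484 in normal lung. Acacb fell in all 3, by log2 differences of -5.47 ± 0.96 in recurrences, -6.09 ± 0.92 in TI-KM primaries and -5.28 ± 0.94 in TI-K primaries (limma adjusted p = 1.82e-04, 1.96e-05 and 1.94e-04), and with the lowest tumour signals below the added 20 these are understated. Fasn, fatty acid synthase, ran 2558 to 13439 (median 11467) in recurrences, 4891 to 15738 (median 11879) in TI-KM primaries and 7917 to 14068 (median 12254) in TI-K primaries, against 25074 in normal lung. No tumour reached the normal array, and the log2 differences of -1.48 ± 0.56 in recurrences, -1.27 ± 0.54 in TI-KM primaries and -1.10 ± 0.55 in TI-K primaries did not pass (limma adjusted p = 0.082, 0.121 and 0.209). Fasn did pass in TI-K primaries with the 2 groups alone (limma adjusted p = 0.0145) and within the remaining arrays (0.0467), and in TI-KM primaries within the remaining arrays (0.0368) and without recurrence 1 (0.0258).

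Elongases went in opposite directions. Elovl6, which lengthens saturated and monounsaturated fatty acids, had signals of 162 to 428 (median 253) in recurrences, 159.6 to 429 (median 251) in TI-KM primaries and 174 to 392 (median 295) in TI-K primaries, against 17723 in normal lung. The tumour groups overlapped each other and lay far from the normal array. It fell 61.9-fold in recurrences, 64.7-fold in TI-KM primaries and 59.96-fold in TI-K primaries (limma adjusted p = 1.66e-10, 4.12e-11 and 1.08e-10), and another probe set gave log2 -6.12 in recurrences, -6.24 in TI-KM primaries and -6.11 in TI-K primaries, while a dim one gave -1.87, -1.45 and -1.28 in the same order. Elovl1, which makes very long saturated chains, was at 5307 to 22267 (median 15607) in recurrences, 8736 to 21086 (median 16953) in TI-KM primaries and 15135 to 20969.9 (median 17836) in TI-K primaries, against 3307 in normal lung. It rose 4.24-fold in recurrences, 4.70-fold in TI-KM primaries and 5.37-fold in TI-K primaries (limma adjusted p = 0.00249, 6.25e-04 and 3.66e-04), and its 3 other probe sets gave log2 differences between 2.17 and 4.24. Elovl5, which lengthens polyunsaturated chains, ran 6458 to 16837 (median 11854) in recurrences, 11848 to 20588 (median 16356) in TI-KM primaries and 13534 to 18613 (median 15328) in TI-K primaries, against 19302 in normal lung, and no difference passed.

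With all arrays in the fit, neither desaturases nor the regulator Srebf1 passed against normal lung. Scd1, a stearoyl-CoA desaturase, was at 17623 to 23954 (median 19097) in recurrences, 15448 to 24339 (median 20497) in TI-KM primaries and 20011 to 30347 (median 22291) in TI-K primaries, against 28335 in normal lung. A second Scd1 probe set, less bright, gave log2 differences of -1.53 in recurrences, -1.64 in TI-KM primaries and -1.66 in TI-K primaries, while the brightest gave -0.52, -0.53 and -0.28 and passed only in TI-KM primaries within the high-18S arrays (-0.68, limma adjusted p = 0.0471). Scd2, its paralogue, ran 7512 to 21721 (median 18888) in recurrences, 8323 to 23604 (median 18698) in TI-KM primaries and 15323 to 20984 (median 17371) in TI-K primaries, against 11759 in normal lung, and 24 of 28 tumours lay above it. Fads2, the first desaturase of polyunsaturated fatty acid synthesis, ran 156 to 398 (median 202) in recurrences, 157 to 468 (median 294) in TI-KM primaries and 101 to 672 (median 245) in TI-K primaries, against 154 in normal lung, and 26 of 28 tumours lay above normal lung. The next brightest Fads2 probe set gave log2 differences of 0.40 in recurrences, 0.58 in TI-KM primaries and -0.08 in TI-K primaries. The dimmest gave 1.54, 2.60 and 2.43 in the same order, and the brightest gave 0.47, 0.80 and 0.58. Fads1, which acts after it, ran 1473 to 3319.5 (median 1924) in recurrences, 1236 to 3220.4 (median 2075) in TI-KM primaries and 1016 to 3165 (median 1496) in TI-K primaries, on both sides of the 1729 of normal lung. Srebf1, whose protein drives the fatty acid arm, ran 1273 to 4550.4 (median 3363) in recurrences, 2764 to 4605 (median 3609) in TI-KM primaries and 3149 to 5507 (median 3829.9) in TI-K primaries, all below the 6234 of normal lung, with limma adjusted p values of 0.0839, 0.142 and 0.276. Srebf1 did pass in recurrences without recurrence 5 (log2 -1.11, limma adjusted p = 0.0473). It passed in TI-KM primaries without recurrence 1 (limma adjusted p = 0.0262), with the 2 groups alone (0.0405) and within the remaining arrays (0.0155), and in TI-K primaries within the remaining arrays (0.0173).

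**Figure D2:**
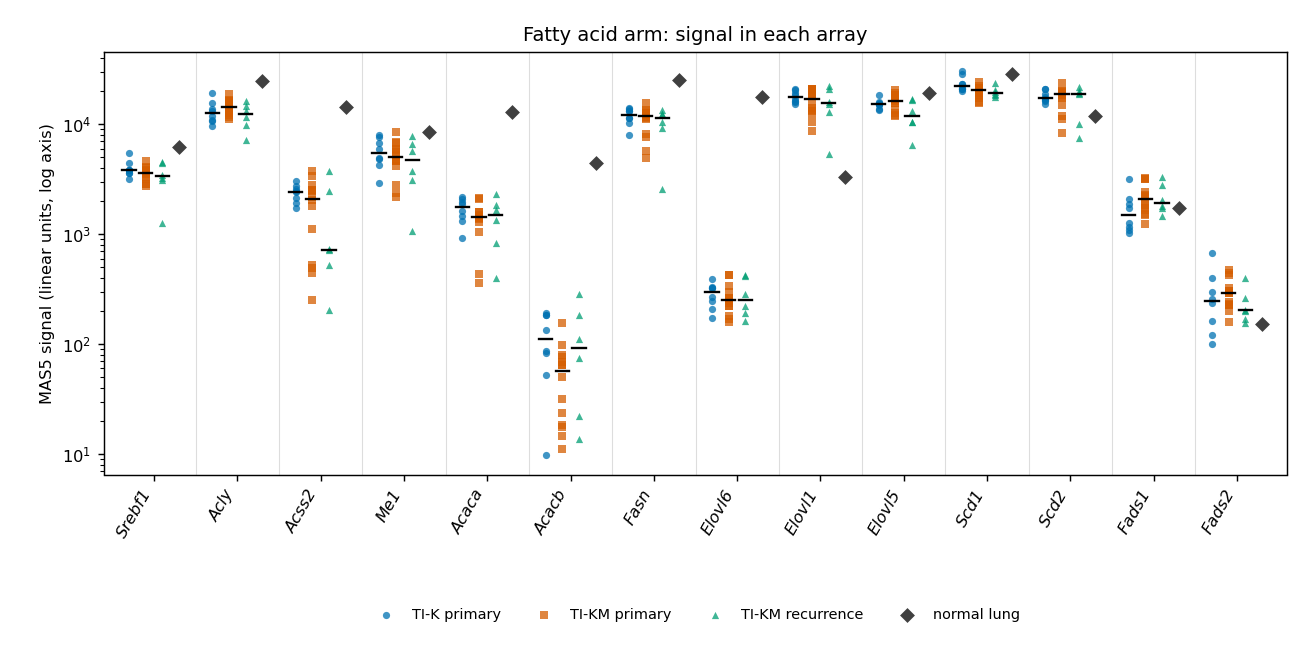
Signal of the 14 fatty acid genes in each array by group, on a log axis; each point is 1 array and black bars mark group medians. For Elovl6 the tumours lie between 159.6 and 429 and normal lung at 17723, and for Elovl1 the tumours lie between 5307 and 22267 and normal lung at 3307.

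In the sterol arm the regulators come first. Insig1, which retains SREBP in the endoplasmic reticulum and is itself an SREBP target, had signals of 473 to 797 (median 747) in recurrences, 475 to 1356 (median 652) in TI-KM primaries and 315 to 1078 (median 635) in TI-K primaries, against 3873 in normal lung. Every tumour lay below the normal array. Insig1 fell 5.65-fold in recurrences, 5.30-fold in TI-KM primaries and 6.51-fold in TI-K primaries (limma adjusted p = 0.00113, 8.34e-04 and 3.37e-04). Srebf2, whose protein drives the sterol arm, ran 264 to 433 (median 373) in recurrences, 153 to 429 (median 309) in TI-KM primaries and 138 to 370.1 (median 246) in TI-K primaries, around the 285 of normal lung. Stard4, a carrier that moves sterol between membranes, ran 373 to 1475 (median 599) in recurrences, 499 to 946 (median 588) in TI-KM primaries and 554 to 1102 (median 723) in TI-K primaries, around 730.2 in normal lung. Neither passed the test on the brightest probe set. A second Srebf2 probe set, nearly as bright, gave log2 differences of 1.45 in recurrences, 0.85 in TI-KM primaries and 0.90 in TI-K primaries. The next brightest Stard4 probe set gave 0.19, 0.04 and -0.0033 in the same order, and the dimmest gave 1.17, 0.69 and 0.71. None of these other probe sets was tested.

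Among the enzymes from acetyl-CoA to squalene, the first and the last members fell. Hmgcs1, HMG-CoA synthase, was at 5215 to 12368 (median 8252) in recurrences, 7025 to 19080.0 (median 9058) in TI-KM primaries and 8495 to 11055 (median 9798) in TI-K primaries, against 21396 in normal lung. All 28 tumours lay below, and TI-KM primary 3 came closest. Hmgcs1 fell 2.68-fold in recurrences, 2.33-fold in TI-KM primaries and 2.19-fold in TI-K primaries (limma adjusted p = 0.00766, 0.0141 and 0.0295), and its 4 other probe sets gave smaller differences, -0.08 to -0.97. Fdft1, squalene synthase, which commits the pathway to sterols, was at 924 to 3201 (median 2060.1) in recurrences, 2034 to 3585 (median 2915) in TI-KM primaries and 2367 to 3475 (median 2717) in TI-K primaries, against 5678 in normal lung. It fell in recurrences (log2 -1.56 ± 0.36, limma adjusted p = 0.00345) and in TI-KM primaries (-1.04 ± 0.34, limma adjusted p = 0.0394), while TI-K primaries did not pass (-0.995 ± 0.35, limma adjusted p = 0.0588) except without recurrence 1 (0.0138) or 6 (0.0365), with the 2 groups alone (0.014) or within the remaining arrays (0.00959). The 3'/5' ratio as a covariate ended the calls of Fdft1 in TI-KM primaries (-0.97, limma adjusted p = 0.0512) and of Hmgcs1 in recurrences (-0.91, limma adjusted p = 0.0527). The next brightest Fdft1 probe set gave -0.54 in recurrences, -0.31 in TI-KM primaries and -0.42 in TI-K primaries, and with it no Fdft1 call was made.

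The 5 enzymes between them did not pass in any group. Mvk, mevalonate kinase, ran 39.6 to 244 (median 143) in recurrences, 88.6 to 267 (median 166) in TI-KM primaries and 70.8 to 228 (median 123) in TI-K primaries, against 198 in normal lung. Pmvk, phosphomevalonate kinase, ran 645 to 8229 (median 1189) in recurrences, 546 to 2662 (median 1383) in TI-KM primaries and 733 to 1648 (median 1042) in TI-K primaries, against 1900.1 in normal lung, and the highest value, in recurrence 3, stood far above all other arrays. Mvd, mevalonate diphosphate decarboxylase, ran 183 to 306 (median 263) in recurrences, 195 to 494 (median 256) in TI-KM primaries and 161 to 361 (median 227) in TI-K primaries, against 216 in normal lung. These 3 consecutive enzymes thus had tumours on both sides of the normal array. Idi1, isopentenyl diphosphate isomerase, ran 549 to 1861 (median 1538) in recurrences, 578 to 2638 (median 1796) in TI-KM primaries and 1232 to 2959 (median 1702) in TI-K primaries, against 2499 in normal lung. A second Idi1 probe set gave log2 differences of -2.01 in recurrences, -1.93 in TI-KM primaries and -1.91 in TI-K primaries, against -0.92, -0.76 and -0.40 for the brightest. Fdps, farnesyl diphosphate synthase, ran 205 to 355 (median 307) in recurrences, 139 to 491 (median 264) in TI-KM primaries and 167 to 469 (median 312) in TI-K primaries, against 228 in normal lung.

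From squalene to cholesterol 1 of 10 enzymes fell by its brightest probe set. Nsdhl, which acts in the removal of methyl groups from lanosterol-derived sterols, was at 633 to 1155 (median 949.9) in recurrences, 586 to 1358 (median 913) in TI-KM primaries and 803 to 1638 (median 1202) in TI-K primaries, against 2594 in normal lung. No tumour reached the normal array, and Nsdhl fell 2.79-fold in recurrences, 2.76-fold in TI-KM primaries and 2.21-fold in TI-K primaries (limma adjusted p = 0.00828, 0.00509 and 0.0365). Its partners in that step did not pass. Msmo1, the methylsterol oxidase, ran 755 to 1747 (median 904) in recurrences, 183 to 1434 (median 869) in TI-KM primaries and 689 to 1500.2 (median 959) in TI-K primaries, against 800.4 in normal lung. Hsd17b7, the ketoreductase, ran 397 to 1095 (median 664) in recurrences, 306 to 1062 (median 649) in TI-KM primaries and 599 to 1238 (median 724) in TI-K primaries, against 1184 in normal lung, and its 4 probe sets disagreed in sign in recurrences (-0.84 to 0.73). Sqle, squalene epoxidase, ran 675 to 2118 (median 1002) in recurrences, 222 to 1249 (median 820.1) in TI-KM primaries and 632 to 1693 (median 1035) in TI-K primaries, against 1253 in normal lung. Lss, which closes the ring to lanosterol, ran 324 to 831 (median 591) in recurrences, 338 to 946 (median 590.2) in TI-KM primaries and 238 to 554 (median 476) in TI-K primaries, against 936 in normal lung, with 1 tumour above normal lung. Within the remaining arrays Lss passed as lower in TI-KM primaries (-0.75, limma adjusted p = 0.0266) and TI-K primaries (-0.93, limma adjusted p = 0.0149). Cyp51, the lanosterol demethylase, ran 398 to 681 (median 636) in recurrences, 436 to 1156 (median 718) in TI-KM primaries and 337 to 1088 (median 623) in TI-K primaries, against 650.93 in normal lung. Tm7sf2, a sterol reductase, ran 271 to 713 (median 407) in recurrences, 256 to 778 (median 503) in TI-KM primaries and 309.6 to 731 (median 424) in TI-K primaries, against 464 in normal lung, so that these steps straddled the normal array. Ebp, a sterol isomerase, ran 1308 to 2439.9 (median 1869) in recurrences, 777 to 3202 (median 1904) in TI-KM primaries and 1030.4 to 2457 (median 1685) in TI-K primaries, against 1238 in normal lung, and 26 of 28 tumours lay above it. Within the remaining arrays Ebp passed as higher in TI-KM primaries (0.897, limma adjusted p = 0.0187) and TI-K primaries (0.86, limma adjusted p = 0.0375). Sc5d, a sterol desaturase, ran 386 to 733 (median 615) in recurrences, 365 to 852 (median 559) in TI-KM primaries and 440.5 to 793 (median 635) in TI-K primaries, all below the 876 of normal lung. Another Sc5d probe set gave log2 differences of -2.50 in recurrences, -2.58 in TI-KM primaries and -1.90 in TI-K primaries. A still dimmer one gave -0.09, -0.33 and -1.38 in the same order, and the brightest gave -0.57, -0.64 and -0.52. The differences of Insig1 were -2.50, -2.41 and -2.70. Dhcr7, the last reductase of the pathway, ran 333 to 1088 (median 578) in recurrences, 274 to 1287 (median 577) in TI-KM primaries and 252 to 739 (median 506) in TI-K primaries, against 770.4 in normal lung, with 6 tumours above it.

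**Figure D3:**
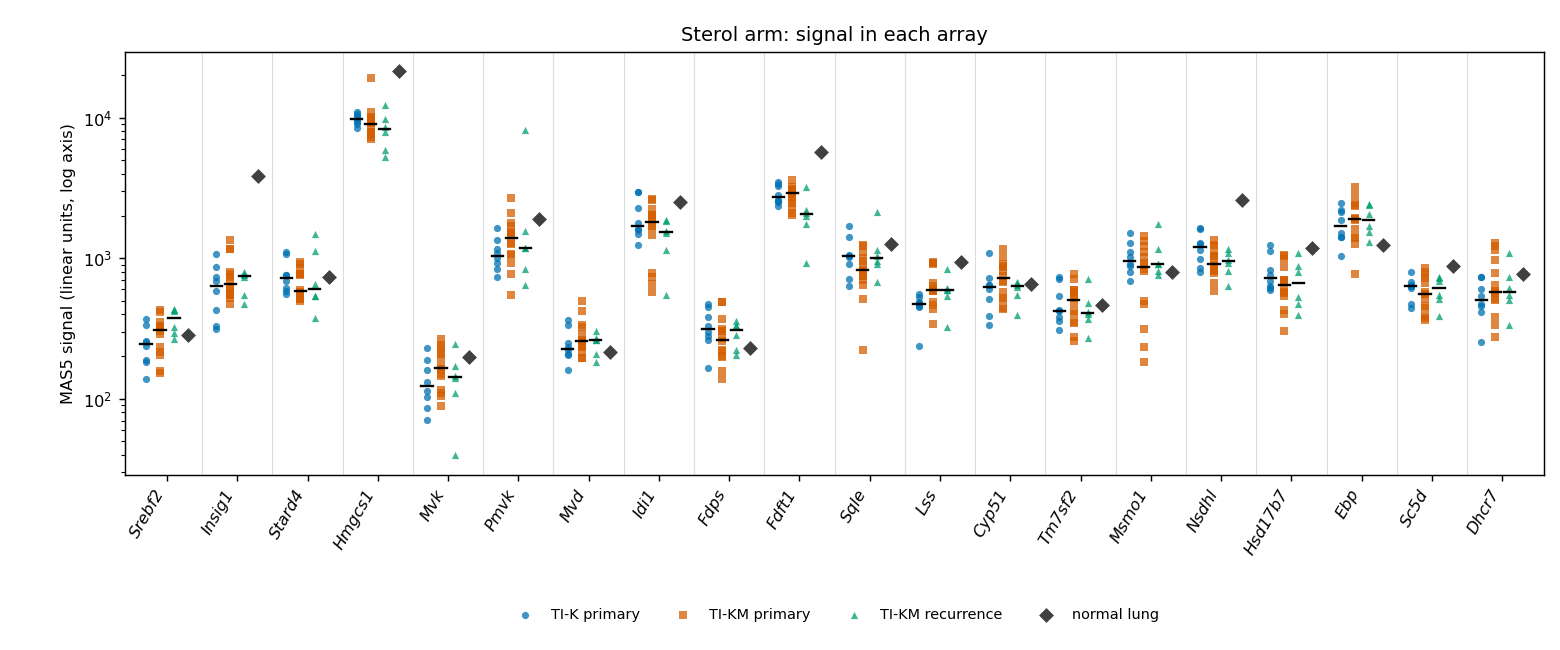
Signal of the 20 sterol genes in each array by group, on a log axis; each point is 1 array and black bars mark group medians. Insig1 lies between 315 and 1356 in tumours and at 3873 in normal lung, while for Cyp51, Tm7sf2 and Stard4 the normal lung point lies inside the range of the tumours.

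Neighbouring pathways, given as lists, were set against the same normal array. In TI-K primaries 6.79% of all genes were called lower and 6.74% higher. In TI-K primaries 9 of 11 genes of triglyceride synthesis and lipolysis fell (list median log2 -3.11), with Pnpla3, a lipase of lipid droplets, at log2 -6.39 and Dgat2, which makes triglyceride, at -5.21. Of 9 genes of fatty acid oxidation 8 fell (median -3.02), with Pdk4, which restrains pyruvate oxidation, at -5.67. Of 8 genes of citrate and NADPH supply 6 fell (median -1.64; citrate synthase gene Cs -2.39, citrate carrier gene Slc25a1 -2.35). Among 8 lipogenic regulators 4 fell and 1 rose (median -1.76), with Thrsp, a lipogenic protein, at -7.39 and Mlxipl, a glucose-sensing factor, at -5.84. Of 9 measured further elongases, desaturases and acyl-CoA synthetases 2 rose (Elovl7 2.28, Acsl4 2.00) and 3 fell (Elovl3, an elongase of brown fat, -5.49), with a median of -0.22. The SREBP processing and prenyl list had 2 of 10 lower (Pdss2 -1.82, Aacs -1.48) and a median of 0.085. The sterol export and esterification list had 2 of 10 higher (Abcg1, a sterol exporter, 2.02) and 1 lower (Osbpl1a -2.17), with a median of 0.16. In the surfactant phospholipid list 4 of 10 rose (Pla2g1b 3.42) and 1 fell (Chpt1 -3.50), with a median of 0.79. Abca3, Sftpb and Sftpc of this list were also counted among the alveolar type II markers above, so these 2 lists are not separate. In both TI-KM primaries and recurrences 10 triglyceride, 8 oxidation and 6 citrate and NADPH genes fell, against 7.15% and 6.09% of all genes. Lipogenic regulators had 4 lower in each, with 1 and 0 higher. The further elongase list had 2 higher and 2 lower in TI-KM primaries, and 1 and 2 in recurrences. The SREBP and prenyl list had 2 lower in each. Sterol export had 3 higher and 1 lower in TI-KM primaries, and 1 and 1 in recurrences. The surfactant list had 4 and 3 higher, with 1 lower in each. All single-gene values given passed the limma test, and the adipocyte signal of the normal array stands beside them as above.

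TI-KM and TI-K primaries were set against each other to see what Mad2 adds to KrasV12. None of the 34 members was called by limma in this comparison, against 7.98% of all genes (5.5% higher, 2.49% lower), while 4 had an unadjusted p below 0.05. The median log2 difference was -0.16 in the fatty acid arm and -0.02 in the sterol arm, against 0.079 over all genes. The 4 members were Scd1 (log2 -0.25 ± 0.09, limma adjusted p = 0.0831), Lss (0.41 ± 0.18, limma adjusted p = 0.126), Nsdhl (-0.32 ± 0.16, limma adjusted p = 0.177) and Acacb (-0.81 ± 0.39, limma adjusted p = 0.177). For Lss, 10 of 14 TI-KM primaries lay above every TI-K primary, and for Scd1, 6 of 14 lay below every TI-K primary. These are readings of the brightest probe sets. The next brightest Lss probe set gave a log2 difference of -0.085 and the dimmest 0.38, and a second Scd1 probe set gave 0.021. Blocking on the sets of arrays, limma called 0 members and 0 genes in all, with 5 members at an unadjusted p below 0.05, and within the remaining arrays the counts were again 0, 0 and 5. Outside the members, Ggps1, which makes geranylgeranyl diphosphate, rose (0.77, limma adjusted p = 0.00886), as did Insig2, the paralogue of Insig1 (0.50, limma adjusted p = 0.0382), and Hadhb of fatty acid oxidation (0.39, limma adjusted p = 0.0246). None of these 3 calls held with the sets as a block (Ggps1 0.37, Insig2 0.08, Hadhb 0.036, limma adjusted p = 0.995 for each).

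Recurrences were set against TI-KM primaries to see what tumours that came back expressed. No member was called by limma, against 0.26% of all genes (0.0411% higher, 0.219% lower), and 2 members had an unadjusted p below 0.05. These were Fdft1 (log2 -0.53 ± 0.16, limma adjusted p = 0.166) and Elovl5 (-0.43 ± 0.15, limma adjusted p = 0.21). For both genes 3 of 6 recurrences (1, 2 and 4, all high-18S arrays) lay below every TI-KM primary. Leaving out recurrence 6 alone made Fdft1 a call (log2 -0.67, limma adjusted p = 0.0394). With all arrays, the next brightest Fdft1 probe set gave a smaller log2 difference of -0.23, and that of Elovl5 gave -0.29. With a block for the sets limma called 0 members, against 0.698% of all genes, and 4 had an unadjusted p below 0.05. Fads3, a relative of Fads1 and Fads2 outside the members, fell (log2 -1.63, limma adjusted p = 0.0269), also with the block (-1.44, limma adjusted p = 0.0256) but not within the remaining arrays (-0.42, limma adjusted p = 0.771). Recurrence 1 stood apart in the fatty acid arm. It had the lowest signal of all 28 tumours for 7 of 14 fatty acid genes (Srebf1, Acly, Fasn, Scd2, Elovl1, Elovl5 and Me1), while it was lowest for 9.67% of all genes. Beside this, its summed alveolar type II signal was the lowest of the tumours (95951.8), and its club cell and proliferation sums were the highest (83368 and 16091). Their part in the low fatty acid signals was not tested.

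Sets of arrays also differed within TI-KM primaries, over genes in general. In this comparison, chosen after seeing the data, limma called 14 of 34 members between the 6 high-18S and the 8 remaining TI-KM primaries, a share near the 42.3% of all genes. Of these members 3 were higher and 11 lower, against 30.3% of all genes higher and 12% lower. Acss2 ran 254 to 1791 (median 509) in the high-18S and 2042 to 3747 (median 2527) in the remaining primaries, without overlap (log2 -2.05 ± 0.32 SE, limma adjusted p = 1.46e-04). In recurrences, where no test was made, Acss2 was at 204 to 734 (median 620.3) in the 4 high-18S arrays and at 2455 and 3764 in the 2 remaining ones. Msmo1 ran 183 to 838 (median 395) in high-18S and 498 to 1434 (median 1062) in remaining TI-KM primaries (log2 -1.27, limma adjusted p = 0.00429). Me1 ran 2174 to 4757 (median 3712) and 4190.4 to 8432 (median 5912) in these sets (-0.83, limma adjusted p = 0.00353). Dhcr7 was the strongest in the other direction, at 586 to 1287 (median 1054) in high-18S and 274 to 645 (median 506) in remaining primaries (1.05, limma adjusted p = 9.997e-04), but only 0.37 with a common median (limma adjusted p = 0.185). The split depends on scaling. With arrays scaled to a common median the median of all genes moved to -0.44, against 0.20 as deposited. Then 0 members were higher and 25 lower, against 1193 higher and 6595 lower among the 14606 genes. With quantile normalization 1 member was higher and 11 lower, against 2295 and 1925 of those genes. Of all genes called, 71.6% were higher as deposited, 15.3% with a common median and 54.4% with quantile normalization. Of the members, 9 (Acss2, Msmo1 and Me1 among them) were lower under all 3 scalings, and none was higher under all 3. The matching count over all genes was not taken.

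**Figure D4:**
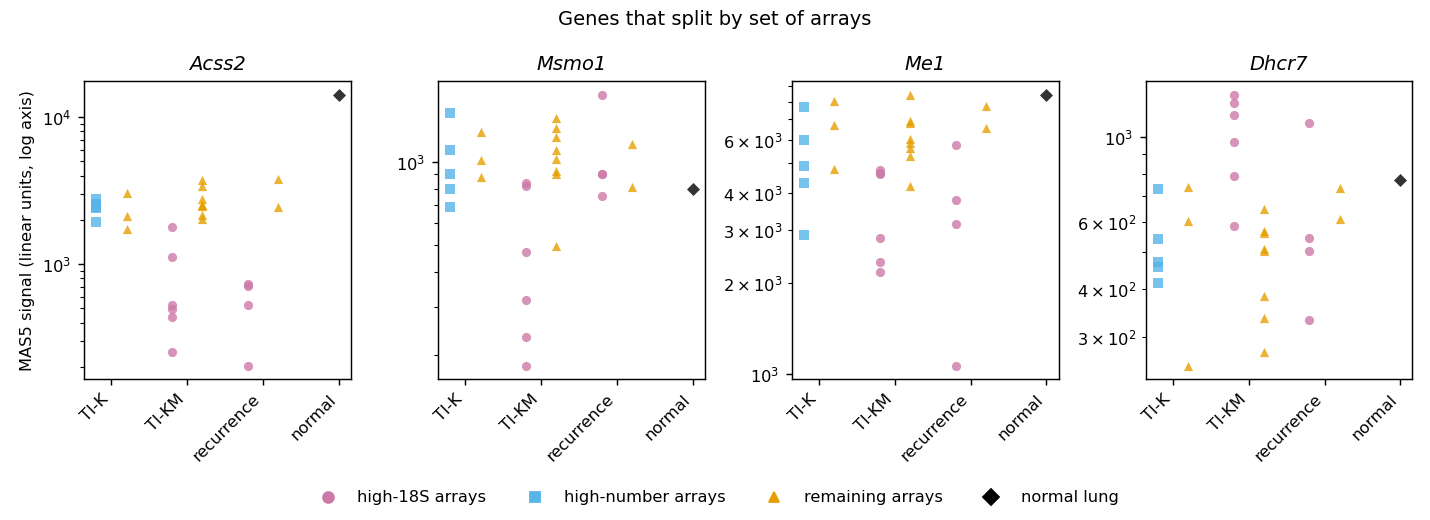
Signal of Acss2, Msmo1, Me1 and Dhcr7 by group and set of arrays, on a log axis, 1 point per array. Acss2 is at 204 to 1791 (median 526) in the 10 high-18S tumours and at 1745 to 3764 (median 2519) in the 13 remaining ones.

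Tumours of 1 group still varied, and members of an arm tended to vary together, with exceptions in both arms. The residual of each member from its group mean was taken over the 28 tumours, and the median Pearson correlation over pairs was 0.37 in the fatty acid arm (91 pairs), 0.22 in the sterol arm (190 pairs), 0.12 between arms (280 pairs) and 0.021 over all gene pairs. After removing the sets as well, the medians were 0.25, 0.22, 0.13 and 0.0035. These are descriptions over arrays that share scaling and probe chemistry, and no test was made. Acaca and Fasn, consecutive enzymes, had the highest correlation of all pairs in the fatty acid arm (0.90), followed by the elongases Elovl1 and Elovl5 (0.86). In the sterol arm the highest were Idi1 with Msmo1 (0.81) and Sqle with Tm7sf2 (0.79). Srebf2, Mvd and Dhcr7 had negative median correlations with the other sterol genes (-0.16, -0.075 and -0.072). After removing the sets these were 0.13, 0.10 and 0.10. For Hmgcs1 and Pmvk the medians were 0.030 and 0.025, and 0.013 and -0.022 after removing the sets. Elovl6 varied apart from its arm, with a median correlation of -0.29 with the other 13, and of -0.13 after removing the sets. Its highest correlation before removing the sets was with Scd1 (0.028), and that pair was at 0.35 after removing them.

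**Figure D5:**
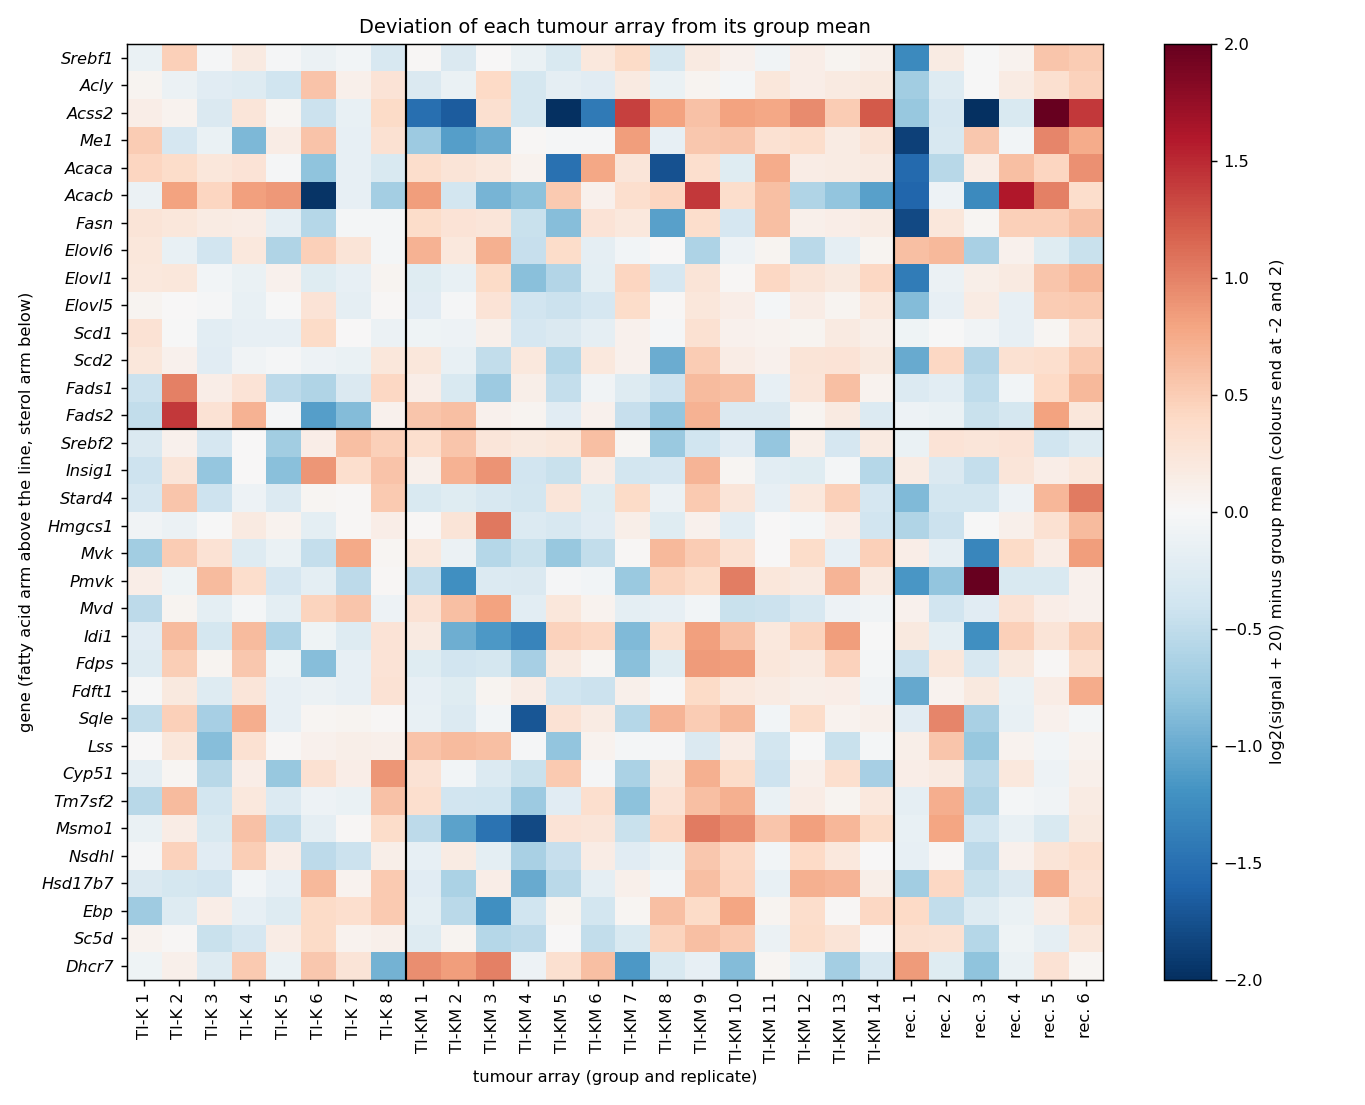
Deviation of each member from its group mean in the 28 tumour arrays, on the log2(signal + 20) scale, with the fatty acid arm above and the sterol arm below. Recurrence 1 is low across much of the fatty acid arm, and Pmvk is high in recurrence 3.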

How the data were processed

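Total RNA of 28 tumours and 1 normal lung was extracted with RNeasy columns and biotin-labelled after a two-cycle target preparation, per the labels' protocols. The deposited values are intensities on a linear scale, made with MAS5 per the submitters' processing notes, with no version given. Every array had a 2% trimmed mean of 500.003, and the values were used as deposited. An array has no read depth, so precision is limited by how many arrays there are. Of 45101 probe sets 34945 named 1 gene, 932 named several and 64 were controls; members had 80 probe sets, 25 genes with several.

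Probe sets stayed in if at least 6 arrays had them above that array's 40th percentile, and the one with the highest mean log2(signal + 20) stood for its gene, which left 14606 genes. An offset of 20 understates changes of dim genes. All 29 arrays entered 1 limma fit (version 3.58.1, R 4.3.3, data.table package of version 1.17.8) with the 4 groups and a variance trend, Benjamini-Hochberg adjusted over all genes and called below 0.05. Figures and promoter searches used Python 3.11.15, pandas 2.3.3 and matplotlib 3.10.9. Nothing in the labels says that samples of a group came from separate animals, so p-values measure the spread between these samples. The fit was checked on simulated data.

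Sets of tumour arrays were defined by an 18S signal above 12000 and, for TI-K primaries, title numbers above 6000. Alternatives were other offsets, filters, scalings, variance models and probe sets, the 2 groups alone, the 3'/5' ratio as a covariate, the sets as a block, single sets, averaging of the tumours sharing number 76, and leaving out each tumour. The members, lists, sets and tests were chosen with earlier results of these data known. Every member is named, with up to 2 called genes of the largest change from each pathway list, the defining markers of a cell type list, and any other gene on which a result turns. Results of the fibroblast, endothelial, macrophage, muscle, club and proliferation marker lists stand among the other observations.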

Additional observations from a re-analysis of the deposited data

Results flagged for a closer look

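Among 68 gene and group combinations of 6 or 8 arrays, 5 held 1 array far from the rest by Dixon's test, or 7.35%, where chance gives about 5%. Recurrence 1 was low for 3 of them. For Srebf1 it had a signal of 1273, against 3085 to 4550 in the 5 other recurrences, for Fasn 2558 against 9202 to 13439, and for Elovl1 5307 against 13043 to 22267. Recurrence 3 had a Pmvk signal of 8229, against 645 to 1555 in the other recurrences; Pmvk has 1 probe set. TI-K primary 3 had an Lss signal of 238, against 447 to 554 in the other TI-K primaries. The cause was not tested for any of them.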

How the results depend on the processing

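No member called between groups changed sign under any alternative, while between the sets of TI-KM primaries Mvd (-0.13) and Srebf2 (-0.03) turned with a common median. All 3 tumour groups kept their calls of Elovl6, Acacb and Insig1 in the settings in which these genes were measured. Before leaving out tumours, Acacb had 11 alternative values in TI-K primaries, where Elovl6 and Insig1 had 12. In TI-KM primaries and in recurrences it had 13, against 14. Scaling to a common median moved the median of all genes in TI-K primaries against normal lung to 0.13 from near 0, and left 5 members called in TI-K primaries, 5 in TI-KM primaries and 4 in recurrences. Within the remaining arrays 14 members were called in TI-K primaries and 14 in TI-KM primaries, against 23.8% and 26.3% of all genes. In the fit of recurrences and normal lung alone 3 members were called, and with the 3'/5' ratio as a covariate 7. Quantile normalization gave 1 call between TI-KM and TI-K primaries, Scd1 by its brightest probe set (log2 -0.24, limma adjusted p = 0.0284). Between high-18S and remaining TI-KM primaries a common median gave 25 calls, all lower, against 6595 lower and 1193 higher among the 14606 genes. The cause of these changes was not tested. Leaving out each tumour in turn gave 7 to 9 calls in TI-K primaries, 9 to 12 in TI-KM primaries and 10 to 11 in recurrences against normal lung, 0 to 0 between TI-KM and TI-K primaries and 0 to 1 between recurrences and TI-KM primaries. Shares of all genes are not given here for the common median, the recurrences with normal lung alone, the 3'/5' ratio or these leave-out fits. The member counts in them thus do not show whether calls changed more in members than in genes at large. No paired analysis was possible because the labels give no replicate numbers that groups share. A single normal lung array limits all comparisons with it, and signals below the offset limit the size of the Acacb difference.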

Other observations

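Markers of other cell types also differed between tumours and the normal lung array, and their part in the lipid results was not tested. In TI-K primaries 4 of 8 macrophage markers rose (Chil3, log2 5.38, limma adjusted p = 2.34e-05), and the summed signal was 45038.6 to 85287.3 in TI-K primaries, against 18712 in normal lung. Chil3 alone had a median of 20079.6 over all tumours, against 505.754 in normal lung. Csf1r, another macrophage marker, lay the other way by its median, at 2139.34 to 11881.4 (median 6978.62) in all tumours and 10141.4 in normal lung. Endothelial markers fell in 3 of 6 cases (Kdr -2.86, limma adjusted p = 8.42e-04), with sums of 3250.89 to 9406.64 in TI-K primaries and 17029.3 in normal lung. Club cell markers fell in 2 of 6 cases, with sums of 13163.3 to 57705.2 in TI-K primaries and 97354.4 in normal lung. Of 7 proliferation markers 3 rose, with sums of 3551.28 to 8373.91 in TI-K primaries and 1852.58 in normal lung. Fibroblast and muscle markers gave no call in TI-K primaries, with 3 and 0 at an unadjusted p below 0.05; their sums were 7024.82 to 24545.6 and 330.714 to 2814.97, against 25936.3 and 4003.04 in normal lung. In TI-KM primaries 4 macrophage and 3 proliferation markers rose, while 4 endothelial, 3 fibroblast (list median log2 -1.77) and 1 club cell marker fell; limma called 0 muscle markers, with 1 at an unadjusted p below 0.05. In recurrences 4 macrophage and 3 proliferation markers rose and 2 endothelial markers fell, while limma called 0 fibroblast, 0 club cell and 0 muscle markers, with 2, 0 and 0 at an unadjusted p below 0.05. Between TI-KM and TI-K primaries 1 fibroblast marker fell, Pdgfra (log2 -1.10, limma adjusted p = 0.0242), a call that was lost with the sets of arrays as a block (-0.25, limma adjusted p = 0.995). Between recurrences and TI-KM primaries 1 club cell marker rose, Fmo2 (log2 1.54, limma adjusted p = 0.0419), also with that block (1.62, limma adjusted p = 0.00578).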
